A study of Mus musculus with 6 samples.

Results

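The 10 genes described here are P4ha1, P4ha2, P4ha3, P4hb, Plod1, Plod2, Plod3, Serpinh1, Pcolce and Crtap, the enzymes, chaperone and accessory proteins that modify, fold and trim procollagen. They were taken by gene name from a table of 30071 genes, and each name occurred in 1 row. All 10 had enough counts to be among the 18177 genes tested. Transcripts were read from MC3T3-E1, a pre-osteoblast line of mouse, grown on polyetheretherketone (PEEK), an implant polymer, whose surface was nano/microstructured. Supernatant of RAW264.7, a macrophage line of mouse, was added in 3 libraries, and 3 libraries were of cells on PEEK alone; all 6 share the line and the surface. The sources used here do not state the dose of supernatant, the culture time or the surface under the RAW264.7 cells. The titles call replicates 2 and 3 of each group biological replicates, and the labels do not say if each library was a culture of its own; p-values thus cover only the differences among these 6 libraries, which may be technical.

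Collagen chains are modified in the endoplasmic reticulum before they wind into a triple helix. Hydroxylation of prolines steadies the helix, hydroxylation of lysines prepares the sites of cross-links and of sugar attachment, and both reactions use iron, oxygen, 2-oxoglutarate and ascorbate. The collagen-specific chaperone HSP47 binds the folded helix until it reaches the Golgi, and propeptides are cut off outside the cell. In osteoblasts, which lay down mostly type I collagen, loss of several of these proteins causes brittle bone in humans.

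The annotation columns of the table put 9 of the 10 genes in the endoplasmic reticulum, all but Pcolce. Of the 15 tested genes annotated with ascorbate binding, 6 were P4ha1, P4ha2, P4ha3, Plod1, Plod2 and Plod3. In the coordinates of the table, for which the sources used here name no build, P4ha3 and Serpinh1 lay 0.932 Mb apart on chromosome 7, and Plod3 and Pcolce 0.578 Mb apart on chromosome 5. Plod2 was at chr9:92424276-92490481 on the plus strand and P4hb at chr11:120451124-120464079 on the minus strand. Each value is of a gene as a whole, and exons, introns and UTRs were not told apart.

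Total counts were 74927500 to 82803173 per library. Of 10 osteoblast-lineage markers, some were abundant and others low. Runx2 had 11434 to 18558 counts with supernatant and 10828 to 12898 on PEEK alone. Col1a2 had 334655 to 640352 counts with supernatant and 519519 to 613274 on PEEK alone, but Col1a1 only 891 to 1847 and 1539 to 1821. Ibsp had 16 to 142 counts with supernatant and 55 to 133 on PEEK alone, and Dmp1 32 to 119 and 51 to 117. Bglap, the osteocalcin gene, had 0 to 17 counts with supernatant and 0 to 2 counts on PEEK alone. Of 11 macrophage markers, 8 were in the table; their summed level was 7.75 to 11.9 CPM (counts scaled to a common library size with TMM) with supernatant and 9.70 to 13.1 CPM on PEEK alone, and Ptprc, the leukocyte CD45 gene, was at 0 in all libraries but replicate 3 with supernatant (4 counts). Replicate 1 with supernatant stood apart from replicates 2 and 3 of its group: without it edgeR called 199 genes, against 3 with all 6 libraries. The chi-square per gene between its counts and theirs was 102 and 112, against 35.2 between replicates 2 and 3. On PEEK alone replicate 1 also stood apart, at 60.5 and 56.7, against 25.6 between replicates 2 and 3. In bulk RNA, fewer cells of a type and less RNA per cell cannot be told apart.

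The members ran from some of the most abundant transcripts to mid-range ones, in an order that both groups shared on the FPKM scale. P4hb, the protein disulfide isomerase that serves as beta subunit of prolyl 4-hydroxylase, had the highest level, at 416 ± 21.3 FPKM with supernatant and 445 ± 11.9 FPKM on PEEK alone (mean ± SD, n = 3 each). It ranked 57 of the 18177 tested genes by mean FPKM. Serpinh1, which encodes HSP47, ranked 115 and Pcolce, which encodes an enhancer of the protease that removes the procollagen C-propeptide, ranked 160. The lowest 3 were Plod1, P4ha3 and P4ha2, which ranked 4293, 6603 and 6924, with 76.4, 63.7 and 61.9% of tested genes below them.

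Serpinh1 was at 240.2 ± 18.7 FPKM with supernatant and 239 ± 7.33 FPKM on PEEK alone, and Pcolce at 168 ± 20.7 FPKM with supernatant and 185 ± 19.9 FPKM on PEEK alone. Crtap, a partner of prolyl 3-hydroxylase 1 and cyclophilin B, followed at 58.5 ± 7.54 FPKM with supernatant and 52.6 ± 12.96 FPKM on PEEK alone. The hydroxylases were lower: Plod3 had 34.8 ± 1.80 FPKM with supernatant and 35.4 ± 4.24 FPKM on PEEK alone, and the other 5 had group means of 6.26 to 24.3 FPKM. Most neighbours in this order had ranges that did not overlap; the ranges of P4ha3 and P4ha2 overlapped in both groups, and those of Crtap and Plod3 on PEEK alone.

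**Figure D1:**
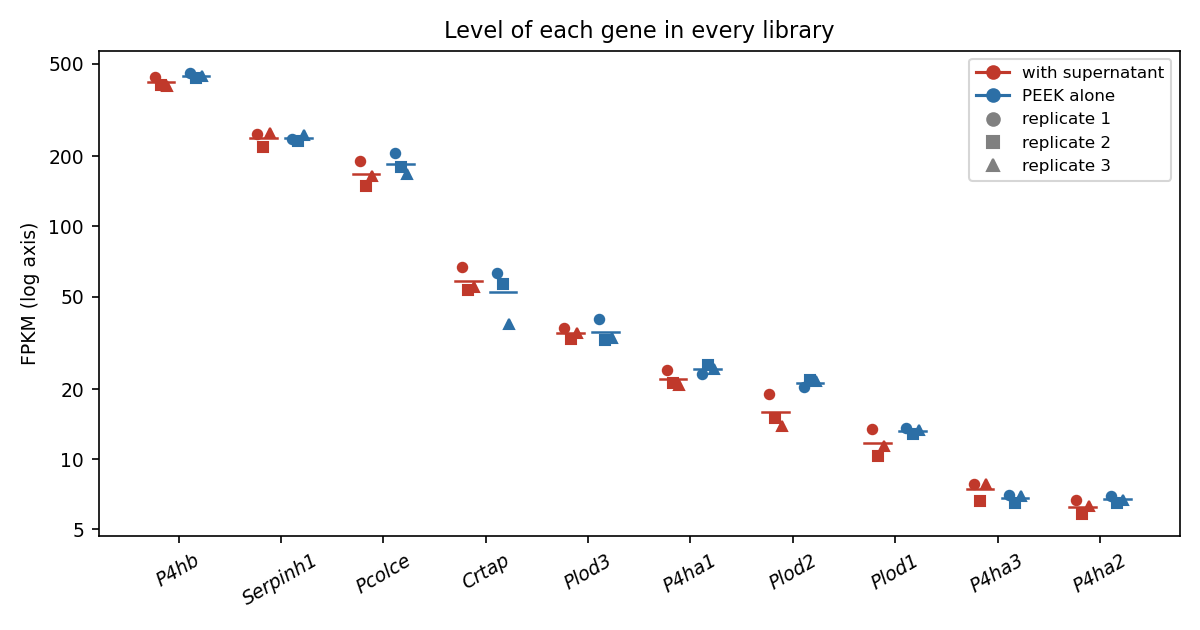
FPKM of the 10 genes (log axis) in each of the 6 libraries, with supernatant in red at the left of each gene and PEEK alone in blue; marker shapes are replicates and lines are group means. P4hb is highest, near 416 and 445 FPKM, and P4ha2 and P4ha3 lowest, near 6 to 8 FPKM; Plod2 is the only 1 of the 10 whose 3 red points all lie below its 3 blue points.

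Part of this order rested on the length behind FPKM. The length implied by counts and FPKM was 1.03 times the bases covered by exons of any GENCODE M21 transcript in every one of the 10 genes. Bases in overlapping exons were counted once, and retained introns were included. For Plod1 this was 6765 bases, against 3243 bases for its longest protein-coding transcript, for P4ha2 6239 against 2263 bases, and for Pcolce 3823 against 1626 bases. Per longest protein-coding transcript, a scale chosen after seeing the data, Pcolce reached 396 ± 48.7 with supernatant and 436 ± 46.9 on PEEK alone, which overlapped the range of P4hb in both groups. On that scale P4ha2, at 17.3 ± 1.18 with supernatant and 18.6 ± 0.654 on PEEK alone, stood above P4ha3, at 9.89 ± 0.911 with supernatant and 9.06 ± 0.41 on PEEK alone. Comparisons of 1 gene between groups do not depend on this length.

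The comparison of the groups asks whether the macrophage supernatant went with other transcript levels of this machinery. No member passed the quasi-likelihood test of edgeR at an adjusted p under 0.05 (Benjamini-Hochberg over all tested genes), a threshold that 0.0165% of tested genes passed. At an unadjusted p under 0.05, 1 of the 10 passed, Plod2, against 8.95% of tested genes. DESeq2 also called 1 of 10, again Plod2, against 1.73% of tested genes, and limma on FPKM called none. The log2 fold change was below 0 for 8 members and above 0 for 2, where 51.7% of tested genes were below 0, and its median was −0.12 over the members and −0.01 over all tested genes.

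Plod2 encodes the lysyl hydroxylase of the telopeptides, the short ends of the collagen chain whose hydroxylysines form the stable cross-links of bone. It had 8164, 6226 and 6257 counts in replicates 1, 2 and 3 with supernatant, against 8717, 10094 and 9547 counts on PEEK alone. Normalized, these were 103, 84.1 and 77.8 CPM with supernatant and 113, 123 and 122 CPM on PEEK alone. All 3 libraries with supernatant lay below all 3 on PEEK alone, with replicate 1 nearest to them.

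The log2 fold change of Plod2 was −0.43 (SE 0.11), or 0.742-fold, with an unadjusted p of 0.00434 and an adjusted p of 0.308 in edgeR. It kept its sign in all 13 alternatives, at −0.55 to −0.35, with adjusted p of 0.0349 to 0.848. Of these, 2 passed the threshold: DESeq2 (−0.42, adjusted p = 0.0349) and edgeR without replicate 1 with supernatant (−0.55, adjusted p = 0.0364), where 1.06% of tested genes passed. The unnamed transcript B430319G15Rik lies on the opposite strand within Plod2 and had 204 to 327 counts with supernatant and 184 to 277 on PEEK alone; the sources used here do not state whether counting used strand.

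Plod1 encodes the lysyl hydroxylase of the helical region. It was at 91.4, 72.8 and 79.7 CPM with supernatant, against 94.0, 90.3 and 94.2 CPM on PEEK alone. Replicates 2 and 3 with supernatant were the 2 lowest of the 6 libraries and replicate 1 lay within the range of PEEK alone. The log2 fold change was −0.19 (SE 0.09, edgeR adjusted p = 0.607), and without replicate 1 with supernatant −0.27 (adjusted p = 0.122).

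Plod3 encodes the family member that also transfers the sugars onto hydroxylysine. It was at 166, 155 and 162 CPM with supernatant and 186, 153 and 156 CPM on PEEK alone, so that the values with supernatant lay within the range on PEEK alone. Its log2 fold change was −0.04 (SE 0.09, edgeR adjusted p = 0.938) and 0.06 without replicate 1 of PEEK alone. The gene overlaps Znhit1 on the opposite strand, which had 1825 to 2345 counts with supernatant and 2220 to 2634 on PEEK alone, so part of either count cannot be told apart if strand was not used.

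The alpha subunits carry the catalytic site of prolyl 4-hydroxylase and each pairs with P4hb. P4ha1 was at 99.6, 91.1 and 88.2 CPM with supernatant and 97.5, 109 and 104 CPM on PEEK alone. Its groups overlapped through replicate 1 of each, and the log2 fold change was −0.16 (SE 0.08, edgeR adjusted p = 0.621). P4ha2 was at 41.8, 37.7 and 40.7 CPM with supernatant, all below the 44.6, 42.3 and 43.7 CPM on PEEK alone (not so in FPKM, where the groups overlapped), with a log2 fold change of −0.12 (SE 0.08, adjusted p = 0.719).

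P4ha3, another alpha subunit, was at 24.8, 21.7 and 25.4 CPM with supernatant and 22.5, 21.1 and 22.9 CPM on PEEK alone. Replicates 1 and 3 with supernatant were the highest of the 6 libraries and replicate 2 lay within the range on PEEK alone. The log2 fold change was 0.11 (SE 0.10, edgeR adjusted p = 0.799). The shared subunit P4hb was at 1265, 1202 and 1188 CPM with supernatant, all below the 1339, 1288 and 1322 CPM on PEEK alone (again not in FPKM), and its log2 fold change was −0.11 (SE 0.08, adjusted p = 0.732).

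**Figure D2:**
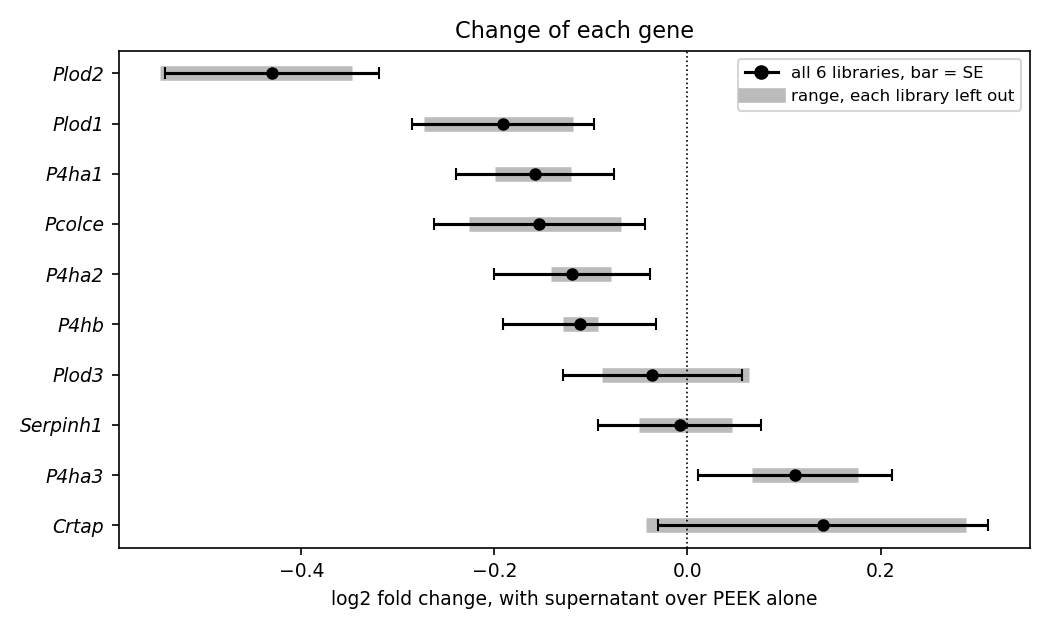
Log2 fold change of each gene, with supernatant over PEEK alone; points and bars are the edgeR estimate and its SE with all 6 libraries, and grey bands span the estimates with each library left out in turn. Plod2 is lowest at −0.43, its band runs from −0.55 to −0.35, and the bands of Plod3, Serpinh1 and Crtap cross 0.

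The chaperone gene Serpinh1 was at 613, 555 and 636 CPM with supernatant and 592, 593 and 630.2 CPM on PEEK alone. The group with supernatant held both the lowest and the highest library, and the log2 fold change was −0.01 (SE 0.08, edgeR adjusted p = 0.984). It was 0.00 with limma on log2(FPKM + 1) and −0.05 to 0.05 with each library left out, so it had no steady sign.

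Pcolce was at 733, 596 and 649 CPM with supernatant and 811, 718 and 670.4 CPM on PEEK alone. Replicates 2 and 3 with supernatant were the 2 lowest libraries, and replicate 1 lay among those on PEEK alone. The log2 fold change was −0.15 (SE 0.11, edgeR adjusted p = 0.733), −0.23 without replicate 1 with supernatant, and −0.07 if replicate 1 of PEEK alone was left out.

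Crtap was at 119.6, 98.1 and 101 CPM with supernatant and 114, 104 and 70.3 CPM on PEEK alone. Replicate 3 of PEEK alone, with 5520 counts against 7262 to 9456 in the other 5 libraries, was the lowest, and the coefficient of variation on PEEK alone, 23.9%, was the largest of any member in either group. The log2 fold change was 0.14 (SE 0.17, edgeR adjusted p = 0.859), and −0.04 without that library. Counting error for the smallest count of any member, 1606 in P4ha3, was 2.495%, well under that spread. The transcript 4930520O04Rik overlaps Crtap on the opposite strand. It had 332 to 396 counts with supernatant and 369 to 452 on PEEK alone, so part of either count cannot be told apart if strand was not used.

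Across the members, every library with supernatant lay below every library on PEEK alone for 3 of 10, Plod2, P4ha2 and P4hb, against 7.36% of tested genes; the reverse held for 0 of 10, against 7.83%. On the deposited FPKM scale Plod2 alone kept this separation, 1 of 10 against 6.55%, and replicate 1 with supernatant brought P4ha2 and P4hb into the range of PEEK alone. Without replicate 1 with supernatant the count was 6 of 10, with P4ha1, Plod1 and Pcolce added, against 18.2% of tested genes, and it was 3 or 4 without any 1 of the other 5 libraries, against 10.7 to 16.1%. The median deviation of the 10 genes from their mean on PEEK alone was −0.01, −0.16 and −0.12 on the log2 scale in replicates 1, 2 and 3 with supernatant, and 0.02, −0.03 and 0.01 on PEEK alone. In replicate 2 with supernatant 9 of 10 members were below that mean, in replicate 3 it was 7, and in replicate 1 it was 5.

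**Figure D3:**
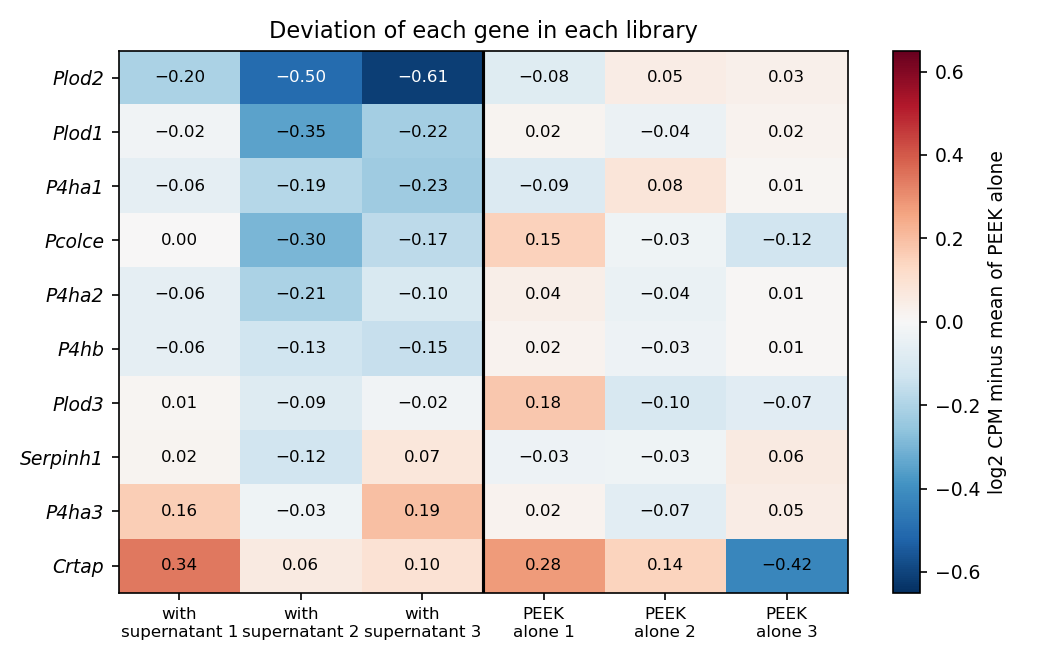
Log2 CPM of each gene in each library minus its mean on PEEK alone, with the 3 libraries with supernatant left of the line and PEEK alone right of it; red is higher and blue lower. Plod2 has −0.20, −0.50 and −0.61 with supernatant, and the pale first column shows replicate 1 with supernatant close to PEEK alone for most genes.

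Composition within a family does not depend on library size, and was set out per library. P4ha1 made up 62.4, 63.1 and 59.5% of the summed P4ha FPKM with supernatant and 62.3, 66.3 and 64.0% on PEEK alone. P4ha2 took 17.3, 17.2 and 18.1% with supernatant and 18.8, 16.9 and 17.6% on PEEK alone. P4ha3 took 20.3, 19.7 and 22.4% with supernatant, each above the 18.9, 16.8 and 18.4% on PEEK alone.

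The difference for P4ha3 was 2.81 percentage points (20.8 ± 1.42% with supernatant, 18.02 ± 1.09% on PEEK alone, SD, n = 3 each; exact two-sided permutation test p = 0.1, the smallest that 3 against 3 allows, and 0.533 adjusted over the 8 shares and ratios tested). It was 2.16 points on counts and 2.64 points per longest protein-coding transcript, again with exact permutation p = 0.1. The levels of the other two shares moved with the length used: on PEEK alone P4ha2 took 17.8 ± 0.953% in FPKM and 35.4 ± 1.39% per longest protein-coding transcript, and P4ha1 took 64.2 ± 1.997% and 47.3 ± 2.14%. Their differences between groups were −0.27 and −2.54 points in FPKM and −0.63 and −2.01 points per longest protein-coding transcript (exact permutation p of 0.3 to 0.7).

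Among the lysyl hydroxylases, Plod2 took 27.6, 25.7 and 23.2% of the summed Plod FPKM with supernatant and 27.5, 32.5 and 31.7% on PEEK alone. Only replicates 1 met: the Plod2 share in replicate 1 with supernatant was just above that in replicate 1 of PEEK alone. The difference was −5.09 percentage points (exact permutation p = 0.2, adjusted 0.533) in FPKM and −5.00 points on counts, where the groups did not overlap (exact permutation p = 0.1). Plod3 took 55.8 ± 2.501% with supernatant and 50.4 ± 3.29% on PEEK alone (SD, n = 3 each; exact permutation p = 0.2), and Plod1 18.7 ± 0.883% with supernatant and 19.0 ± 0.648% on PEEK alone (exact permutation p = 0.6).

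**Figure D4:**
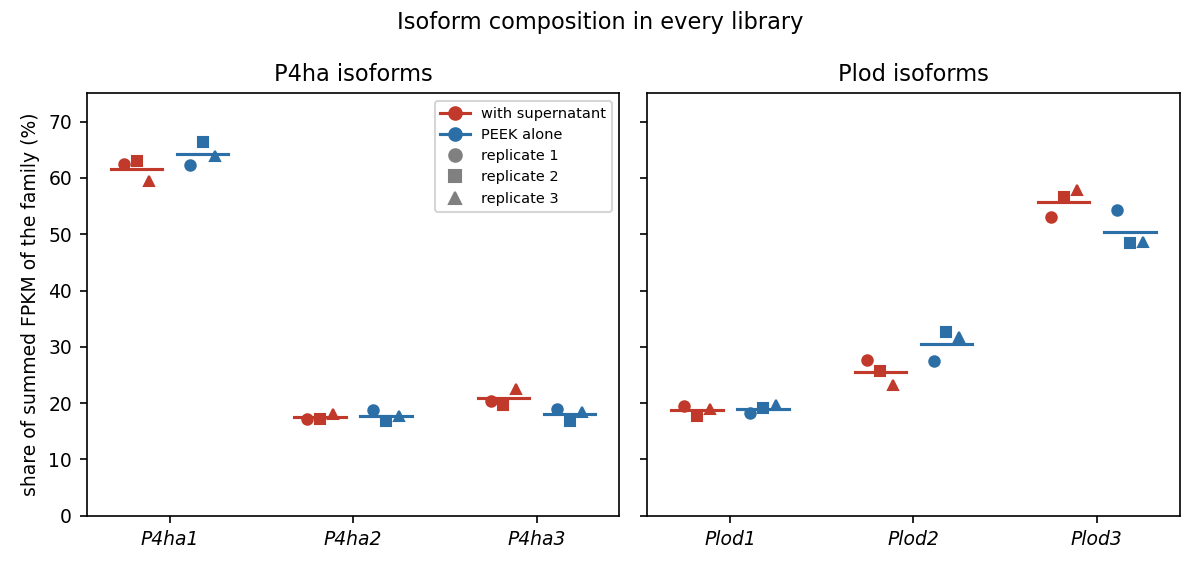
Share of each isoform in the summed FPKM of its family (percent) in each library, P4ha at the left and Plod at the right, with supernatant in red and PEEK alone in blue; shapes are replicates and lines are group means. The 3 red points of P4ha3 lie above its 3 blue points, and the red mean of Plod2, 25.5%, lies below its blue mean, 30.6%.

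P4hb was in excess of its alpha subunits in every library. Its FPKM was 11.4, 12.0 and 11.5 times the summed P4ha FPKM with supernatant and 12.3, 11.2 and 11.7 times on PEEK alone (exact permutation p = 0.8). P4hb has other partners and acts alone as a disulfide isomerase, and these are transcript levels, not a measure of the enzyme.

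The 3 alpha subunit genes, which share their partner, differed in the bases before their start. The stretches below are the 250 bases before the RefSeq start in GRCm38.p6, 5′ to 3′ on the gene's strand, with each match of the hypoxia response core (ACGTG or GCGTG, either strand) in capitals. P4ha1 is at chr10:59323046-59323295, P4ha2 at chr11:54100674-54100923 and P4ha3 at chr7:100285270-100285519, all on the plus strand.
P4ha1: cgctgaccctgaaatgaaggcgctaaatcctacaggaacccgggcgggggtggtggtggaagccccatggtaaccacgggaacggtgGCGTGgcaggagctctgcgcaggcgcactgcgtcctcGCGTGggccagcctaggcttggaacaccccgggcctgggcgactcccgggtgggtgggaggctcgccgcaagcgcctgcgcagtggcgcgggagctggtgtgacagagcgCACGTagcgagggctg
P4ha2: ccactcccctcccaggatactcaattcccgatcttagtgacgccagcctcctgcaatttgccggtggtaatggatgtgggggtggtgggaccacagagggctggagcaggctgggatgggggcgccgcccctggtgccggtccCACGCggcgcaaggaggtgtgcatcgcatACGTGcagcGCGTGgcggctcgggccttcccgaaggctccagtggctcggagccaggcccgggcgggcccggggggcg
P4ha3: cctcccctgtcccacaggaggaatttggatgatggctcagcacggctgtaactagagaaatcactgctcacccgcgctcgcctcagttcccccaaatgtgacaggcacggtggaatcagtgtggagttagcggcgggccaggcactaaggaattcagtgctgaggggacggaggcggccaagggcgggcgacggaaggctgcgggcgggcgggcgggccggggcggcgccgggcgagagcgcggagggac

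P4ha1 and P4ha2 held 3 matches each and P4ha3 held none. RefSeq promoters were at hand for 9 of the 10 genes, all but Plod2, and 8 of the 9 held at least 1 core, as did 53.4% of the 14615 promoters of tested genes and 38.6% of all 32851. Bases downstream of the start were found in a GENCODE M21 transcript for all of the 9 but Crtap. Crtap is counted among the 8 and has the lowest GC content, so its values rest on a start that was not matched. None of the 9 held the ER stress response element (CCAAT and CCACG with 9 bases between them; 0.113% of all promoters) or the heat shock core GAANNTTC (6.69%), on either strand. Matches of the 2 hypoxia cores may share bases, and the 9 promoters ranged from 53.6 to 70% in GC content. A match is a description of these letters, not a site of binding.

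Other genes of the same pathway were counted from lists. Of 27 partners in collagen synthesis and export, 26 were in the table and tested, and edgeR called 0. At an unadjusted p under 0.05 there were 2, against 8.95% of tested genes. The log2 fold change was above 0 for 6 and below 0 for 20, where 51.7% of tested genes were below 0, and the median was −0.10. DESeq2 and limma on log2(FPKM + 1) also called 0. Sec23a and Sec24d, coat proteins of the vesicles that carry procollagen from the endoplasmic reticulum, were at 72.0 ± 1.83 and 101 ± 2.51 CPM with supernatant and 82.9 ± 6.86 and 112 ± 7.00 CPM on PEEK alone (edgeR adjusted p = 0.520 and 0.624). Adamts2, which removes the N-propeptide, had a log2 fold change of −0.28 (SE 0.12), and the C-propeptidase gene Tll1, at 0.501 ± 0.0745 CPM with supernatant and 0.158 ± 0.144 CPM on PEEK alone, 1.65 (SE 0.90).

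The list of collagen chains, substrates of these enzymes, had a lower median log2 fold change than the members, described here with no test between the lists; it does not hold every collagen gene. Of its 13 chains, edgeR called 1 lower, Col6a3, and DESeq2 called Col6a3 and Col11a1, against 1.73% of tested genes with DESeq2. At an unadjusted p under 0.05 in edgeR there were 6, against 8.95% of tested genes. The log2 fold change was below 0 for 12 and above 0 for 1 (Col5a1, 0.06, edgeR adjusted p = 0.954), against 51.7% of tested genes below 0. Its median was −0.72, against −0.12 over the 10 members and −0.01 over all tested genes. That median includes chains near the floor, among them Col4a2 (0.0666 CPM with supernatant, 0.457 CPM on PEEK alone, −2.73) and Col4a1 (0.113 and 0.397 CPM, −1.79). Groups did not overlap for 1 chain, Col6a3, against 7.36% of tested genes on the lower side. Col6a3 was at 5.37, 4.53 and 6.62 CPM with supernatant and 20.7, 19.1 and 21.1 CPM on PEEK alone (log2 fold change −1.88, SE 0.16, edgeR adjusted p = 0.0167), all 3 lower with supernatant. Col6a2 was at 468 ± 188 CPM with supernatant and 769 ± 150.1 CPM on PEEK alone (log2 fold change −0.72, adjusted p = 0.484), Col12a1 at 224 ± 85.6 CPM with supernatant and 383 ± 77.5 CPM on PEEK alone (−0.77, adjusted p = 0.4398), and Col11a1 at 0.574 ± 0.358 CPM with supernatant and 2.48 ± 2.05 CPM on PEEK alone (−2.10, adjusted p = 0.429). Col18a1, which is outside the list and was picked after its values were seen, had the opposite sign, at 22.5, 23.5 and 27.9 CPM with supernatant and 17.9, 20.8 and 12.97 CPM on PEEK alone (log2 fold change 0.52, SE 0.18, edgeR adjusted p = 0.453). Col1a2 alone made up 47.9 to 49.7% of the summed chain FPKM with supernatant and 44.3 to 46.2% on PEEK alone, while Col1a1 was at 1.76 to 3.54 FPKM with supernatant and 2.86 to 3.44 FPKM on PEEK alone.

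Set against these chains, the summed FPKM of the 10 members was 0.790, 1.26 and 1.22 times the summed chain FPKM with supernatant and 0.797, 0.864 and 0.870 times on PEEK alone. Replicates 2 and 3 with supernatant stood above the other 4 libraries and replicate 1 below them. The group difference was 0.245 (exact two-sided permutation test p = 0.4, adjusted 0.64). With each library left out in turn it was 0.162 to 0.395 (exact permutation p = 0.2 to 0.8), highest without replicate 1 with supernatant and lowest without replicate 2 with supernatant. On CPM the mean ratio was 0.348 with supernatant and 0.282 on PEEK alone, a difference of 0.0662 (exact permutation p = 0.4). In FPKM these means were 1.09 and 0.844, so the differences on CPM and FPKM are not on the same scale. The member sum, 918 to 1055 FPKM with supernatant and 1003 to 1075 FPKM on PEEK alone, came mostly from P4hb, Serpinh1 and Pcolce, whose levels are given above. The chain sum was 1336, 731 and 793 FPKM in replicates 1, 2 and 3 with supernatant. On PEEK alone it was 1350, 1168 and 1153 FPKM. Replicates 2 and 3 with supernatant thus had the lowest chain sums, and their member sums were not above those on PEEK alone.

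ER chaperone and oxidase genes, which share their compartment with the hydroxylases, did not pass: of 14 listed, 13 were tested, and edgeR, DESeq2 and limma called 0. At an unadjusted p under 0.05 there was 1, against 8.95% of tested genes. The log2 fold change was above 0 for 9 and below 0 for 4, where 51.7% of tested genes were below 0, and the median was 0.08. Hyou1, a large chaperone of the HSP70 class, was at 237 ± 11.5 CPM with supernatant and 197 ± 14.3 CPM on PEEK alone (log2 fold change 0.27, adjusted p = 0.412). Pdia6 and Pdia4, disulfide isomerases related to P4hb, had −0.14 and 0.10, and Hspa5, which encodes BiP, 0.10.

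P4ha1, P4ha2 and Plod2 are known targets of the hypoxia-inducible factor. Of 14 genes of hypoxia and oxygen sensing, edgeR, DESeq2 and limma called 0, and 4 had an unadjusted p under 0.05 in edgeR, against 8.95% of tested genes. The log2 fold change was above 0 for 8 and below 0 for 6, where 51.7% of tested genes were below 0, and the median was 0.02. The glucose transporter gene Slc2a1 was at 55.3 ± 5.34 CPM with supernatant and 66.9 ± 2.97 CPM on PEEK alone (log2 fold change −0.27, adjusted p = 0.446), Bnip3, a mitophagy receptor gene, at 16.7 ± 1.10 CPM with supernatant and 21.1 ± 2.85 CPM on PEEK alone (−0.34, adjusted p = 0.498) and Ndrg1 at 19.8 ± 4.64 CPM with supernatant and 26.3 ± 2.22 CPM on PEEK alone (−0.41, adjusted p = 0.5399). The stress-response gene Ddit4 had the opposite sign, at 95.7 ± 13.1 CPM with supernatant and 72.0 ± 12.4 CPM on PEEK alone (0.41, adjusted p = 0.464).

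Of 9 genes that supply the cofactors of the hydroxylases, edgeR and limma called 0 and the median was 0.01. DESeq2 called 1, against 1.73% of tested genes, and the same 1 had an unadjusted p under 0.05 in edgeR, against 8.95%. That gene was Idh1, the cytosolic isocitrate dehydrogenase that makes 2-oxoglutarate, at 75.7 ± 4.76 CPM with supernatant and 103 ± 7.38 CPM on PEEK alone (log2 fold change −0.45, SE 0.09, edgeR adjusted p = 0.237). All 3 libraries with supernatant lay below all 3 on PEEK alone. The ascorbate transporter gene Slc23a2 was at 82.5 ± 6.41 CPM with supernatant and 79.1 ± 4.52 CPM on PEEK alone and its relative Slc23a1 at 0.592 ± 0.133 CPM with supernatant and 0.741 ± 0.1001 CPM on PEEK alone, and the iron store gene Fth1 was at 1559 ± 357 CPM with supernatant and 1677 ± 117 CPM on PEEK alone.

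**Figure D5:**
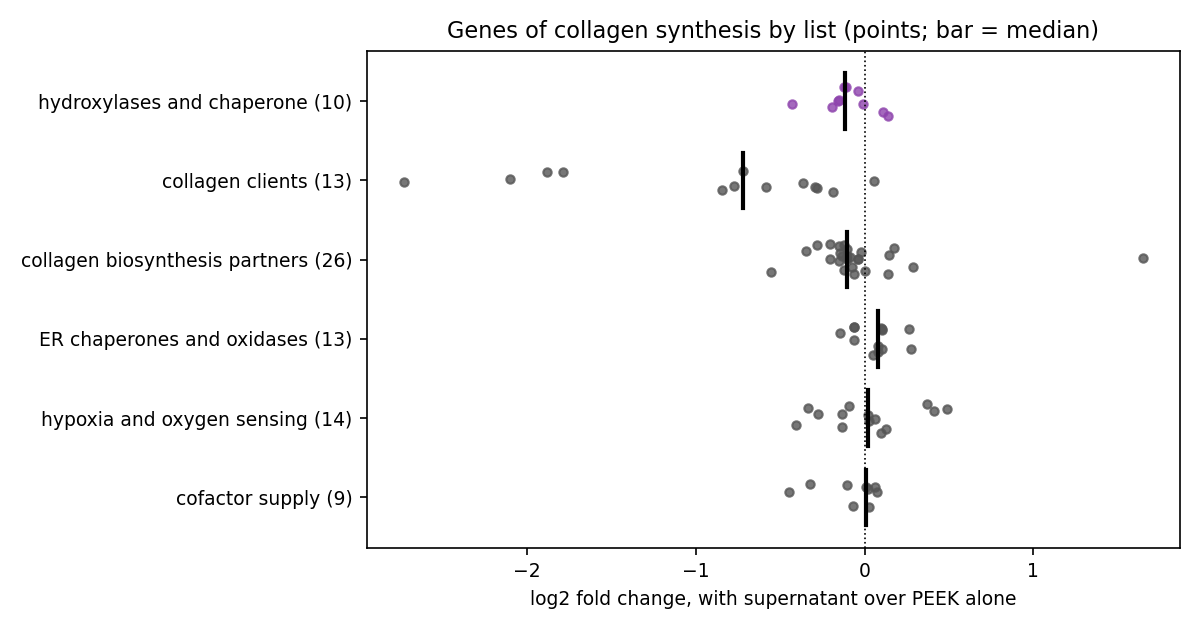
Log2 fold change of each tested gene, with supernatant over PEEK alone, by list; points are genes, bars are list medians and the number of genes is in brackets. The collagen clients, some of them near the floor, have a median of −0.72, the 10 hydroxylase and chaperone genes −0.12, and the ER chaperone list 0.08.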

How the data were processed

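RNA of 6 MC3T3-E1 libraries was poly(A)-selected and sequenced in pairs with dUTP strand marking, per the labels' protocols. The deposited table holds unnormalized counts and FPKM for every gene and library, per the file headers; the submitters' processing notes name cutadapt 1.9 and HISAT2 2.2.1. The sources used here do not state the counting tool, its use of strand, the genome build or the annotation. The libraries summed to 74927500 to 82803173 counts, and intervals of counts cover counting error only. No 2 libraries were copies: each pair gave a chi-square of 25.6 or more per gene.

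Counts were tested with edgeR 4.0.16 in R 4.3.3: TMM, filterByExpr (minimum count 10, minimum total 15), quasi-likelihood fits on group alone, Benjamini-Hochberg over 18177 genes. The SE is the log2 fold change divided by the square root of F. Shares and ratios used FPKM and exact permutation tests (SciPy 1.17.1). DESeq2 1.42.0, limma 3.58.1 and the other alternatives are given in the closing section. The fit was checked on simulated counts. Replicate numbers were taken from library names, and the labels do not state that they pair libraries. Same-numbered deviations correlated at −0.03 to 0.02 across genes. This showed no shared effect of the number but cannot exclude that cultures were handled in pairs. Gene IDs were found in GENCODE M21 (GRCm38) for 28415 genes, 10 of 10 members among them, but no member shared its coordinates, so only exon lengths were taken from it. Promoter sequences are RefSeq's, GRCm38.p6, and are printed for the 3 alpha subunit genes.

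The members and lists were chosen with earlier results of these data known. All members are named. From each list, the genes past the threshold and then those of smallest p, up to 4, are named. Of the collagen chains, Col1a1, Col1a2, Col4a1, Col4a2, Col5a1 and, from outside the list, Col18a1 were added after their values were seen. The scale per longest protein-coding transcript and the counts of members without overlap in smaller groups or in FPKM were added after seeing the data.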

Additional observations from a re-analysis of the deposited data

How the results depend on the processing

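The edgeR count of called genes was 3, and 315 with DESeq2, 0 without the low-count filter, 0 with limma on unfiltered log2(FPKM + 1), 0 with the replicate number as a block, 0 at an adjusted p under 0.01, and 0 to 199 with each library left out. Of the members, 0 were called with all libraries, 1 with DESeq2 and 0 to 1 with each library left out; Plod2 was the gene in both cases. The median log2 fold change over the members was −0.13 to −0.08 with each library left out. Under every alternative it stayed within 0.0584 of its value in the main fit. That bound is the SD between replicates of the median deviation of the members per library, not a spread of the fold change itself. Of the 130 member estimates from alternatives, 2 passed and 7 changed sign: the log2 fold change of Serpinh1 was 0.00404 with limma on log2(FPKM + 1), with or without the filter, and on log2(FPKM + 0.1), and −0.0507 to 0.0460 with libraries left out; that of Plod3 ran from −0.0886 to 0.0641 and that of Crtap from −0.0433 to 0.288. Members with groups that did not overlap, on the lower side, numbered 3, and 3 to 6 with each library left out and 1 on the FPKM scale. Of the shares and ratios, the differences of P4ha2 (−0.71 to 0.24 points), Plod1 (−0.62 to 0.24 points) and P4hb over summed P4ha (−0.34 to 0.18) changed sign when libraries were left out. The difference of the P4ha3 share was 2.01 to 3.37 points and that of Plod2 −6.64 to −3.95 points. Taking same-numbered libraries as pairs leaves each difference of shares the same by construction, so it is no check of them. The smallest sign-flip p was 0.25, for the P4ha3 share, which is the smallest that 3 pairs allow. The cause of these changes was not tested.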
